A study of Mus musculus with 12 samples.

Results

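Slc7a8 and 9 further plasma membrane amino acid transporters were followed across 4 groups of mouse adipose stromal vascular fraction, the mixture of progenitor, vascular and immune cells left when adipocytes are removed. The 10 genes were picked by symbol (Slc7a8, Slc7a5, Slc3a2, Slc7a1, Slc7a2, Slc7a7, Slc1a5, Slc38a1, Slc38a2 and Slc43a2) from 24422 counted features, and Slc7a8 was picked because it was higher on the high-fat diet in these same libraries. All 10 members were detected in every library and passed the filter on low counts, with 16713 genes tested in all. Each group held 3 libraries. SD mCherry came from mice of genotype p21+/mcherry on Standard Diet (replicates 1, 2 and 3), and HFD mCherry from the same genotype on High Fat Diet (replicates 15, 17 and 20). HFD Tert (replicates 25, 26 and 27) and HFD TertCi (replicates 30, 31 and 33) came from p21+/mcherry-Tert and p21+/mcherry-TertCi mice on High Fat Diet, in which the p21 (Cdkn1a) promoter drives the telomerase protein Tert or TertCi, a form without catalytic activity. All 4 groups thus carry a knock-in at 1 p21 allele, no group is wild type, and the Tert groups have no standard diet counterpart. The labels give no age, sex, fat depot or batch, and nothing in them says whether replicates are separate animals, so p-values measure the spread between these libraries, which may be technical.

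Amino acids enter cells through transporters that differ in substrate and in energy source. Slc3a2 (the CD98 heavy chain) is a glycoprotein that carries Slc7 light chains to the cell surface, and the light chains do the transport: Slc7a5 and Slc7a8 exchange neutral amino acids, and Slc7a7 releases arginine and lysine in exchange for neutral amino acids. Slc7a1 and Slc7a2 take up arginine, lysine and ornithine without a heavy chain, Slc1a5, Slc38a1 and Slc38a2 use sodium to move glutamine and other small neutral amino acids, and Slc43a2 lets branched-chain amino acids and phenylalanine diffuse across the membrane. In adipose tissue, leucine uptake feeds the mTORC1 growth pathway, and arginine uptake supplies nitric oxide synthase and arginase in macrophages. Several of these genes are known targets of Atf4, the transcription factor of the amino acid shortage response.

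On GRCm38, the assembly also called mm10, the GENCODE annotation places Slc7a8 at chr14:54722209-54781946, Slc7a7 at chr14:54369442-54417780, Slc7a5 at chr8:121881150-121907694, Slc3a2 at chr19:8706882-8723369, Slc7a1 at chr5:148327410-148399904, Slc38a1 at chr15:96571418-96642913 and Slc38a2 at chr15:96687392-96699730, all on the minus strand. Slc7a2 lies at chr8:40862396-40922308, Slc1a5 at chr7:16781340-16798274 and Slc43a2 at chr11:75531694-75577575, all on the plus strand. Exons of 3 members overlap a gene on the other strand: Slc7a2 shares 635 bases with Gm26584, Slc7a7 232 bases with Oxa1l and Slc43a2 922 bases with Gm45606. Whether the counting used strand is not given in the sources used here, so the counts of these 3 may include reads of the partner.

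RefSeq promoter windows on GRCm38.p6 were at hand for 6 of the 10 members. The stretches before the first annotated exon of Slc7a8 and Slc7a1 are shown because these 2 genes, one paired with Slc3a2 and one not, were both higher in every HFD mCherry library than in every SD mCherry library. They read 5′ to 3′ on the minus strand, with Slc7a8 at chr14:54781947-54782136 and Slc7a1 at chr5:148399905-148400154.
Slc7a8: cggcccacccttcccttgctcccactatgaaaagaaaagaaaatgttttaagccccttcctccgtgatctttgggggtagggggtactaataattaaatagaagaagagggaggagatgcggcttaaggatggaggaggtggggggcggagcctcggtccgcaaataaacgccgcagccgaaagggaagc
Slc7a1: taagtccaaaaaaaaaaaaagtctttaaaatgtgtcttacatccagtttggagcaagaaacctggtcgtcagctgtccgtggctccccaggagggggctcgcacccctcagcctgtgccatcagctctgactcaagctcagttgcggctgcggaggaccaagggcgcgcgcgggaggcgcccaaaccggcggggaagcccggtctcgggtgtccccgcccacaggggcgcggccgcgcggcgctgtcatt
A set of 3 short words were searched on both strands of the full 300-base windows: TGATGNAA, the core of amino acid response elements bound by Atf4, CACGTG, the E-box read by Myc and Tfe3 family factors, and GAGGAAGT, a form of the Spi1 site of myeloid cells. They occur in 3.97%, 7.15% and 3.20% of 32851 promoter windows, respectively. The 6 members had 12 windows, 5 of them of Slc7a7. Those of Slc7a7 hold the only matches, both of them TGATGNAA, which starts 141 bases and 1 base before a RefSeq transcript start. The 30 bases around each, with the match in capitals, lie at chr14:54418067-54418096 and chr14:54417927-54417956.
Slc7a7 upstream match: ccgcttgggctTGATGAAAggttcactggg
Slc7a7 match at the start: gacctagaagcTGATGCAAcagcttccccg
These are matches of letters and not tested binding sites.

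The libraries held 16430330 to 19486965 counts, and the least abundant member, Slc7a7, had 152 to 357 counts in a library. The counted knock-in feature had 0 counts in all 6 mCherry libraries, 33 to 48 in HFD Tert and 41 to 86 in HFD TertCi, as labelled. Progenitor, endothelial and macrophage marker genes were detected in all 12 libraries. Libraries differed in ways the labels do not name. Crisp1, a secretory gene of the epididymis, had 641 to 14780 CPM in 8 libraries and under 1 CPM in 1 library of each group, namely SD mCherry 2, HFD TertCi 31, HFD mCherry 20 and HFD Tert 27. HFD mCherry 15 also stood apart from its mates in several members, as given below. CPM is a gene's count as a share of its library, set to a fixed total. TMM, the scaling used, adjusts each library size for differences in RNA composition, and ± after a level is the standard deviation over 3 libraries.

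**Figure D1:**
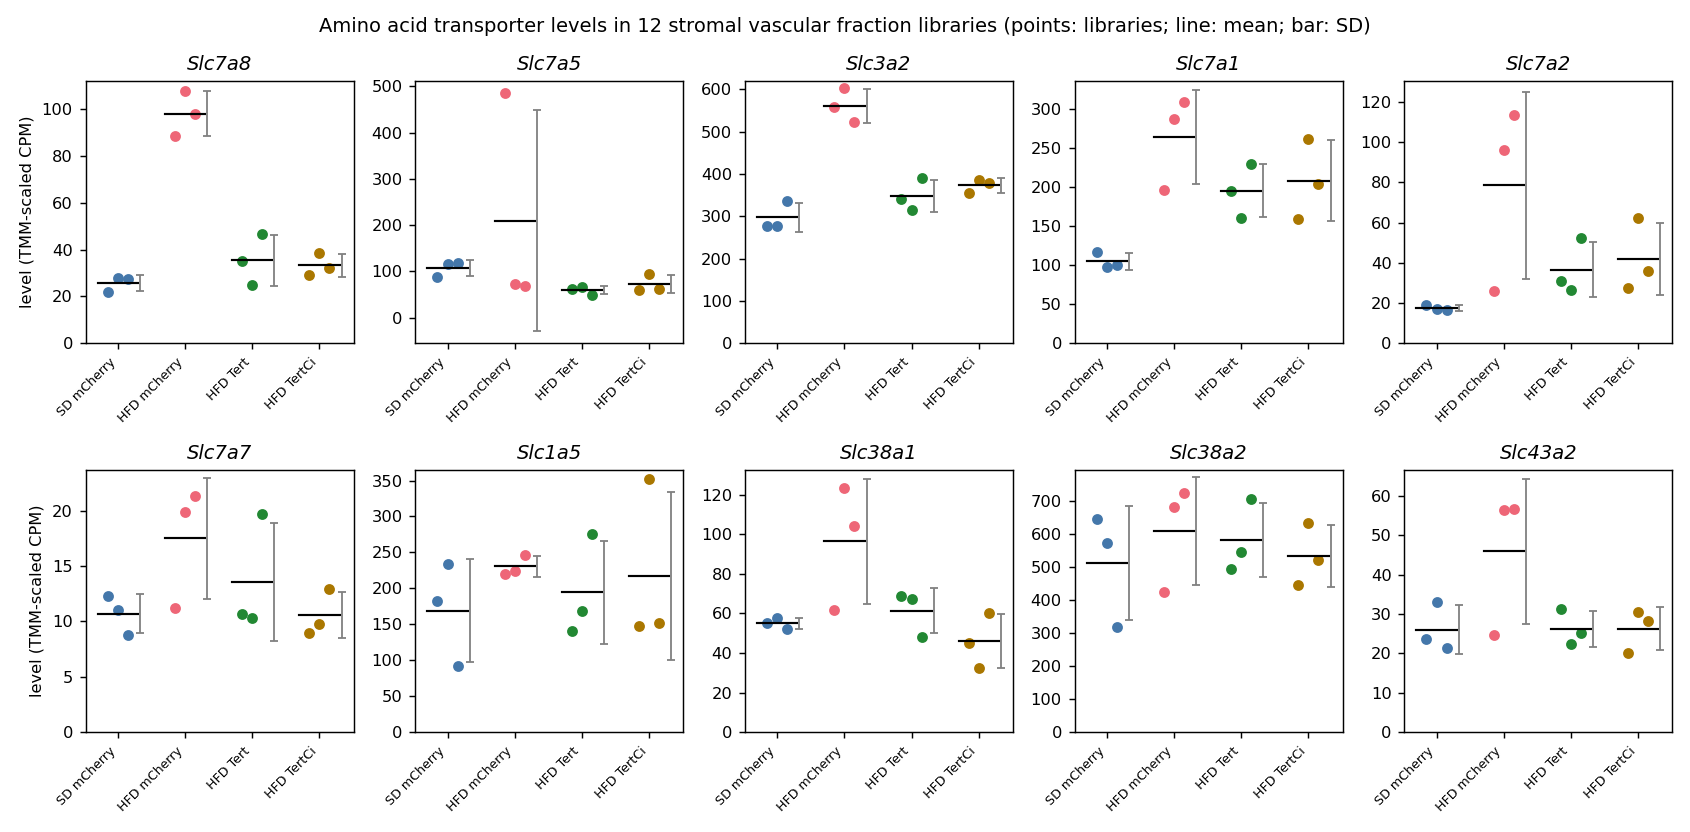
Levels of the 10 transporters (y axis, TMM-scaled CPM, linear) in the 3 libraries of each of 4 groups, with 1 point per library, a line at the mean and a grey bar for the standard deviation. Slc7a8 and Slc3a2 have 3 HFD mCherry points above all 9 others, and Slc7a5 has 1 HFD mCherry point, at 485 CPM, far above its mates.

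Slc7a8 set the HFD mCherry group apart from the 3 others. Its level was 22.0, 27.9 and 27.3 CPM in SD mCherry and 88.5, 108 and 97.7 CPM in HFD mCherry. It was 35.2, 24.7 and 46.5 CPM in HFD Tert and 29.02, 38.8 and 32.1 CPM in HFD TertCi. No other library reached the lowest HFD mCherry value, while the HFD Tert libraries overlapped those of SD mCherry and the HFD TertCi libraries were all slightly above them. The means were 25.7 ± 3.25, 97.9 ± 9.57, 35.5 ± 10.9 and 33.3 ± 4.97 CPM in that order. The fitted log2 difference of HFD mCherry from SD mCherry was 1.93 ± 0.242 (SE). It is the value the gene was chosen for and is given with no test. Against the same HFD mCherry libraries, the log2 difference was -1.46 ± 0.238 in HFD Tert and -1.56 ± 0.239 in HFD TertCi, also with no test, since these comparisons share the libraries that chose the gene. In the 8 libraries with Crisp1 at 1 CPM or more the diet difference was 1.99, and between the 2 mCherry libraries under 1 CPM it was 1.80.

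The heavy chain Slc3a2 was, with Slc7a8, the member whose HFD mCherry libraries stood clear of all others. It stood at 278, 278 and 337 CPM in SD mCherry and at 557, 602 and 522 CPM in HFD mCherry. The HFD Tert libraries had 340, 315 and 390 CPM, and the HFD TertCi libraries 354, 387 and 379 CPM. As for Slc7a8, the lowest HFD mCherry library lay above the highest of the 9 others. The log2 difference of HFD mCherry from SD mCherry was 0.91 ± 0.179, which missed the threshold of 0.05 (edgeR adjusted p = 0.0659). It was -0.69 ± 0.178 for HFD Tert (edgeR adjusted p = 0.187) and -0.59 ± 0.178 for HFD TertCi (edgeR adjusted p = 0.215) against HFD mCherry. Slc7a8 and Slc3a2 were the 2 members whose HFD mCherry libraries all lay above all 6 Tert and TertCi libraries, against 7.03% of all genes tested. Bulk RNA cannot tell more cells of a type from more RNA per cell, here or for any member below.

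Slc7a5, the leucine exchanger, did not follow Slc7a8. The SD mCherry libraries had 88.5, 117 and 117 CPM, whereas HFD mCherry had 485 CPM in replicate 15 and 73.9 and 69.0 CPM in replicates 17 and 20. HFD Tert had 62.9, 65.6 and 49.4 CPM and HFD TertCi 60.3, 94.3 and 62.3 CPM. Replicate 15 was thus 6.79 times the mean of its mates, and without it the HFD mCherry libraries were below every SD mCherry library and above every HFD Tert library. The fitted log2 difference from SD mCherry was 0.96 ± 0.627 (edgeR adjusted p = 0.354), and it turned to -0.59 ± 0.250 without replicate 15 (edgeR adjusted p = 0.130). The differences from HFD mCherry were -1.82 ± 0.641 in HFD Tert (edgeR adjusted p = 0.231) and -1.54 ± 0.636 in HFD TertCi (edgeR adjusted p = 0.303), and without replicate 15 they were -0.27 and 0.0156. Of the 9 high-fat diet libraries, replicate 15 and HFD TertCi 31 were the 2 that reached the lowest SD mCherry value. What else differs in replicate 15 was not tested against its Slc7a5 level.

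Slc7a7, the least abundant member in CPM, had 12.3, 11.01 and 8.81 CPM in SD mCherry and 11.2, 19.9 and 21.3 CPM in HFD mCherry. It had 10.7, 10.3 and 19.7 CPM in HFD Tert and 8.98, 9.79 and 12.9 CPM in HFD TertCi. HFD mCherry 17 and 20 and HFD Tert 27 were the 3 high libraries, HFD mCherry 15 was within the standard diet range, and the ranges of all groups overlapped. The log2 difference was 0.71 ± 0.341 for the diet (edgeR adjusted p = 0.229), and -0.37 ± 0.340 and -0.73 ± 0.341 for HFD Tert and HFD TertCi (edgeR adjusted p = 0.605 and 0.354).

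The cationic transporters Slc7a1 and Slc7a2 were higher in all 9 high-fat diet libraries than in the 3 SD mCherry libraries, the 2 members of which this was true, against 3.50% of all genes tested. Slc7a1 had 117, 97.9 and 99.8 CPM in SD mCherry and 196, 287 and 309 CPM in HFD mCherry. HFD Tert had 195, 161 and 229 CPM and HFD TertCi 159, 262 and 204 CPM. The Tert and TertCi means were 1.86 and 1.98 times the SD mCherry mean, with no overlap in either case. For this gene the log2 difference of HFD mCherry from SD mCherry was 1.33 ± 0.250 (edgeR adjusted p = 0.0659), while those of HFD Tert and HFD TertCi from HFD mCherry were -0.44 ± 0.246 and -0.34 ± 0.246 (edgeR adjusted p = 0.390 and 0.533).

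Slc7a2, which feeds arginine to nitric oxide synthase and arginase, had a standard deviation of 46.5 CPM around a mean of 78.5 CPM in HFD mCherry. The SD mCherry libraries held 19.2, 17.3 and 16.5 CPM. HFD mCherry had 25.8 CPM in replicate 15 and 96.3 and 113 CPM in replicates 17 and 20. HFD Tert had 31.1, 26.6 and 52.4 CPM and HFD TertCi 27.6, 62.3 and 35.9 CPM. Replicate 15, the library with the highest Slc7a5, thus had 0.246 of the Slc7a2 of its mates and was the lowest of the 9 high-fat diet libraries. The log2 difference of HFD mCherry from SD mCherry was 2.15 ± 0.510 (edgeR adjusted p = 0.0727), and those of HFD Tert and HFD TertCi from HFD mCherry were -1.10 ± 0.494 and -0.91 ± 0.492 (edgeR adjusted p = 0.304 and 0.419).

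The sodium-coupled transporters Slc1a5 and Slc38a2 overlapped between all 4 groups. Slc1a5 had 182, 233 and 91.5 CPM in SD mCherry and 221, 224 and 247 CPM in HFD mCherry. HFD Tert had 140.0, 168 and 276 CPM, and HFD TertCi 147, 352 and 151 CPM. Its highest library was HFD TertCi 31 and its lowest SD mCherry 3. Slc38a2, which cells are known to raise when amino acids run short, had 648, 575 and 319 CPM in SD mCherry and 424, 682 and 726 CPM in HFD mCherry. HFD Tert had 494, 547 and 709 CPM, and HFD TertCi 445, 635 and 524 CPM. The diet differences were 0.45 ± 0.422 for Slc1a5 (edgeR adjusted p = 0.516) and 0.25 ± 0.314 for Slc38a2 (edgeR adjusted p = 0.635). Without SD mCherry 3, which was lowest for both genes, they were 0.15 and -0.00212. Against HFD mCherry, Slc1a5 differed by -0.24 ± 0.421 in HFD Tert and by -0.09 ± 0.421 in HFD TertCi (edgeR adjusted p = 0.803 and 0.942). Slc38a2 differed by -0.07 ± 0.314 and -0.19 ± 0.314 (edgeR adjusted p = 0.937 and 0.806).

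Slc38a1, the close relative of Slc38a2 and its neighbour on chromosome 15, showed more of a group pattern. It had 55.2, 57.5 and 52.1 CPM in SD mCherry and 61.8, 123 and 104 CPM in HFD mCherry, against 68.6, 67.2 and 48.2 CPM in HFD Tert and 45.1, 32.6 and 60.3 CPM in HFD TertCi. The HFD mCherry libraries lay above all SD mCherry and all HFD TertCi libraries but overlapped HFD Tert. The log2 differences were 0.81 ± 0.288 for the diet (edgeR adjusted p = 0.140), -0.65 ± 0.288 for HFD Tert (edgeR adjusted p = 0.296) and -1.07 ± 0.290 for HFD TertCi (edgeR adjusted p = 0.197).

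Slc43a2, the facilitated branched-chain carrier, had 23.7, 33.2 and 21.3 CPM in SD mCherry and 24.7, 56.5 and 56.9 CPM in HFD mCherry. It had 31.3, 22.4 and 25.1 CPM in HFD Tert and 20.05, 30.5 and 28.2 CPM in HFD TertCi. HFD mCherry 17 and 20 stood above the 10 other libraries, and replicate 15 was within the range of the other groups. The diet difference was 0.82 ± 0.328 (edgeR adjusted p = 0.171), and those of HFD Tert and HFD TertCi were both -0.81 ± 0.328 (edgeR adjusted p = 0.270 and 0.292).

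**Figure D2:**
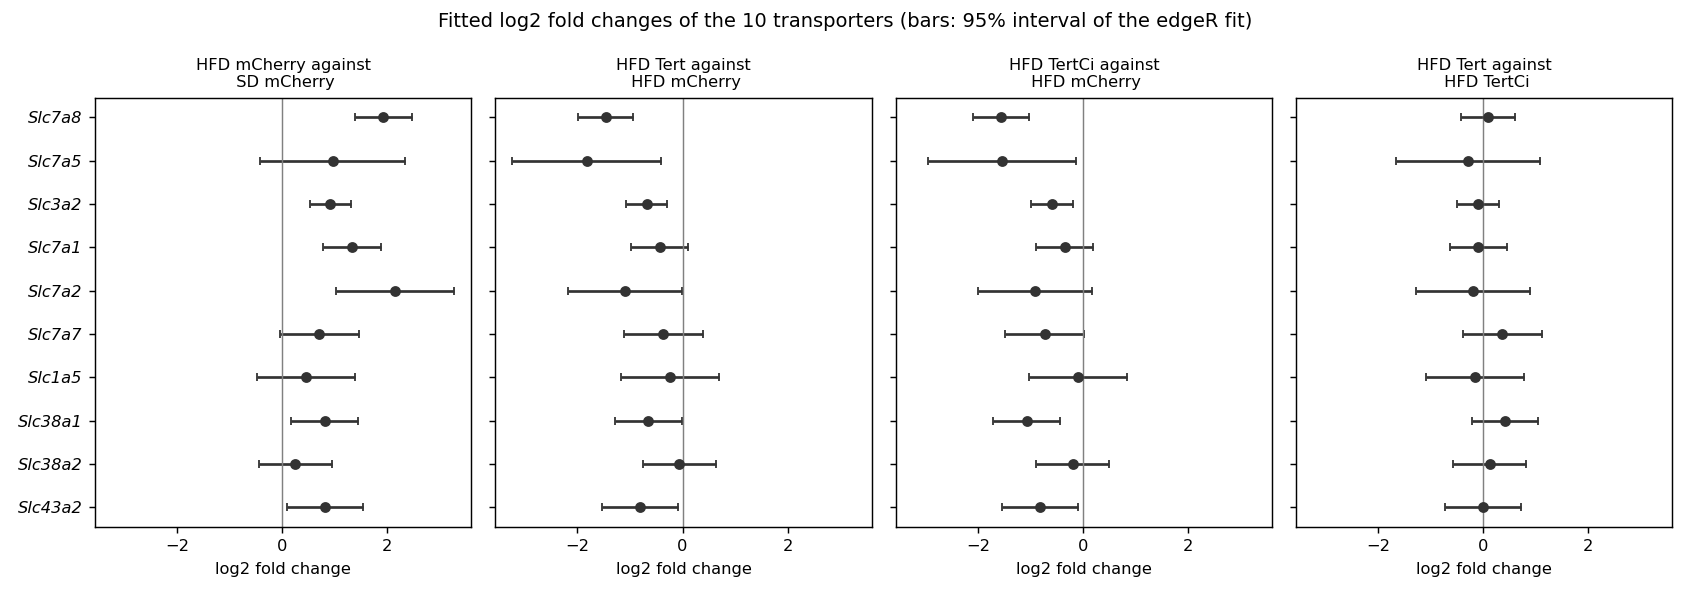
Log2 fold changes of the 10 transporters (x axis) in 4 comparisons, 1 panel each, with points at the edgeR estimate and bars for its 95% interval. All 10 points are above 0 in the diet panel, all 10 are below 0 in both panels against HFD mCherry, and the intervals of all 10 include 0 in the panel of HFD Tert against HFD TertCi.

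Over the 10 members, the diet comparison gave 10 log2 differences above 0 and none below, with a median of 0.87 against -0.08 over all genes tested. By adjusted p, 1 member was called, against 0.0479% of all genes tested. It was Slc7a8, whose call is no test because this contrast chose the gene. At an unadjusted p under 0.05, 6 members were higher, against 14.1% of all genes tested. The libraries did not overlap for 5 members, namely Slc7a8, Slc3a2, Slc7a1, Slc7a2 and Slc38a1, all higher in HFD mCherry, against 13.9% of all genes tested. Because Slc7a8 was picked from this contrast and is included, these counts and those of the fits below only describe the members. In the fit without HFD mCherry 15, 6 members and 2082 genes were called, the members being Slc7a8, Slc3a2, Slc7a1, Slc7a2, Slc38a1 and Slc43a2. Without HFD Tert 27, 4 members and 686 genes were called, and without SD mCherry 3, 1 member and 48 genes. Leaving out SD mCherry 1 or 2, HFD mCherry 17 or 20, HFD Tert 25 or any HFD TertCi library left 0 members called.

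Against HFD mCherry, all 10 members had log2 differences below 0 in HFD Tert, with a median of -0.67 against -0.05 over all genes tested. No gene was called by edgeR in that comparison (0% of all genes tested), while DESeq2 called 810, among them Slc3a2 of the members other than Slc7a8. At an unadjusted p under 0.05, 2735 genes differed, and 6 members were lower against 9.75% of all genes tested. The libraries did not overlap for 3 members, Slc7a8, Slc7a5 and Slc3a2, against 11.1% of all genes tested. In HFD TertCi all 10 were likewise below 0, with a median of -0.77 against -0.04. There 0 members were called by edgeR and 0.0120% of all genes tested, while DESeq2 called 599 genes, among them Slc3a2 and Slc38a1 of the members other than Slc7a8. Without HFD mCherry 15, edgeR called 198 genes, among them Slc38a1. At an unadjusted p under 0.05, 5 members were lower, against 8.92% of all genes tested, and 3 members did not overlap, Slc7a8, Slc3a2 and Slc38a1, all lower, against 21.5% in either direction. These comparisons and the diet comparison share the 3 HFD mCherry libraries and are not independent of it.

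HFD Tert and HFD TertCi, which share no library with the contrast that chose Slc7a8, were compared directly. The log2 difference of Slc7a8 was 0.09 ± 0.234, with a 95% interval from -0.43 to 0.61 (edgeR adjusted p = 1). That of Slc3a2 was -0.10 ± 0.178, from -0.49 to 0.29, the narrowest interval of the 10, and that of Slc7a5 was -0.29 ± 0.623, from -1.66 to 1.09, the widest. The point estimates were above 0 for 5 members and below 0 for 5. Among the 10, 0 were called by edgeR (0% of all genes tested) or by DESeq2, 0 had an unadjusted p under 0.05 (1.36% of all genes tested), and 0 had libraries that did not overlap (5.13% of all genes tested). These intervals do not show that active and inactive Tert acted alike.

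Against the standard diet, 2 members were higher in all HFD Tert libraries, Slc7a1 and Slc7a2, and 1 was lower, Slc7a5, at 0.551 of the SD mCherry mean, against 23.3% of all genes tested in either direction. In HFD TertCi, 4 members were higher than in every SD mCherry library, Slc7a8, Slc3a2, Slc7a1 and Slc7a2 (10.3% of all genes tested), with ratios of means of 1.29, 1.25, 1.98 and 2.37. Diet and genotype differ together in these comparisons and cannot be told apart.

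Per kilobase of exon, the order of the members was much the same in all groups. Slc3a2 was the most abundant member in each group, at 84.3 ± 9.65 CPM per kb on the standard diet, 159 ± 11.4 for HFD mCherry, and 98.7 ± 10.8 and 106 ± 4.87 for the Tert and TertCi groups. Slc38a2 came next at 58.2 ± 19.5, 69.1 ± 18.4, 66.01 ± 12.6 and 60.5 ± 10.8 CPM per kb. Its SD mCherry mean was above that of Slc1a5 (40.5 ± 17.2) by less than the standard deviation of Slc38a2 and slightly more than that of Slc1a5. Slc7a8 held rank 6 in all 4 groups, at 5.14 ± 0.650, 19.6 ± 1.91, 7.09 ± 2.17 and 6.65 ± 0.994 CPM per kb, below Slc7a1 and above the remaining 4. In HFD mCherry its neighbour Slc7a1, at 22.9 ± 5.20, was within the spread. The 4 lowest, Slc7a2, Slc7a7, Slc38a1 and Slc43a2, lay between 1.94 and 3.23 CPM per kb in SD mCherry, with Slc7a2 lowest there and Slc43a2 lowest in the other groups.

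The light chains that pair with Slc3a2 were then set against one another, as CPM per kb of exon of Slc7a5, Slc7a6, Slc7a7, Slc7a8, Slc7a10 and Slc7a11. Slc7a8 made up 10.97%, 10.95% and 11.8% of their sum in SD mCherry. In HFD mCherry it made up 10.9% in replicate 15 and 33.3% and 31.9% in replicates 17 and 20. It made up 17.6%, 13.1% and 21.5% in HFD Tert and 17.2%, 15.6% and 17.3% in HFD TertCi. Replicate 15 therefore had a standard diet share although its Slc7a8 level was that of its mates, because Slc7a5 alone took 80.7% of the sum there. Slc7a5 took 59.6%, 62.1% and 68.1% in SD mCherry and 30.9% and 30.5% in HFD mCherry 17 and 20. It took 30.9% to 47.0% in HFD Tert and 45.3% to 51.3% in HFD TertCi, so 8 of the 9 high-fat diet libraries had a lower Slc7a5 share than every SD mCherry library. In HFD mCherry 17 and 20 Slc7a8 and Slc7a5 were at about equal levels per kb, 21.5 and 19.9 in replicate 17 and 19.5 and 18.6 in replicate 20, a balance seen in no SD mCherry library. Slc7a6, another exchanger of the family, took 9.53% to 16.6% in SD mCherry and 22.9% to 25.7% in HFD Tert. It took 16.1% to 19.7% in HFD TertCi, and 3.89%, 19.9% and 19.7% in HFD mCherry 15, 17 and 20. The sum of light chains per Slc3a2 was 0.487 to 0.646 in SD mCherry, 1.03 in HFD mCherry 15, and 0.337 to 0.452 in the 8 other high-fat diet libraries. RNA shares of this kind do not measure the protein complexes, and since the shares add to 100% a higher share of 1 chain lowers the others.

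**Figure D3:**
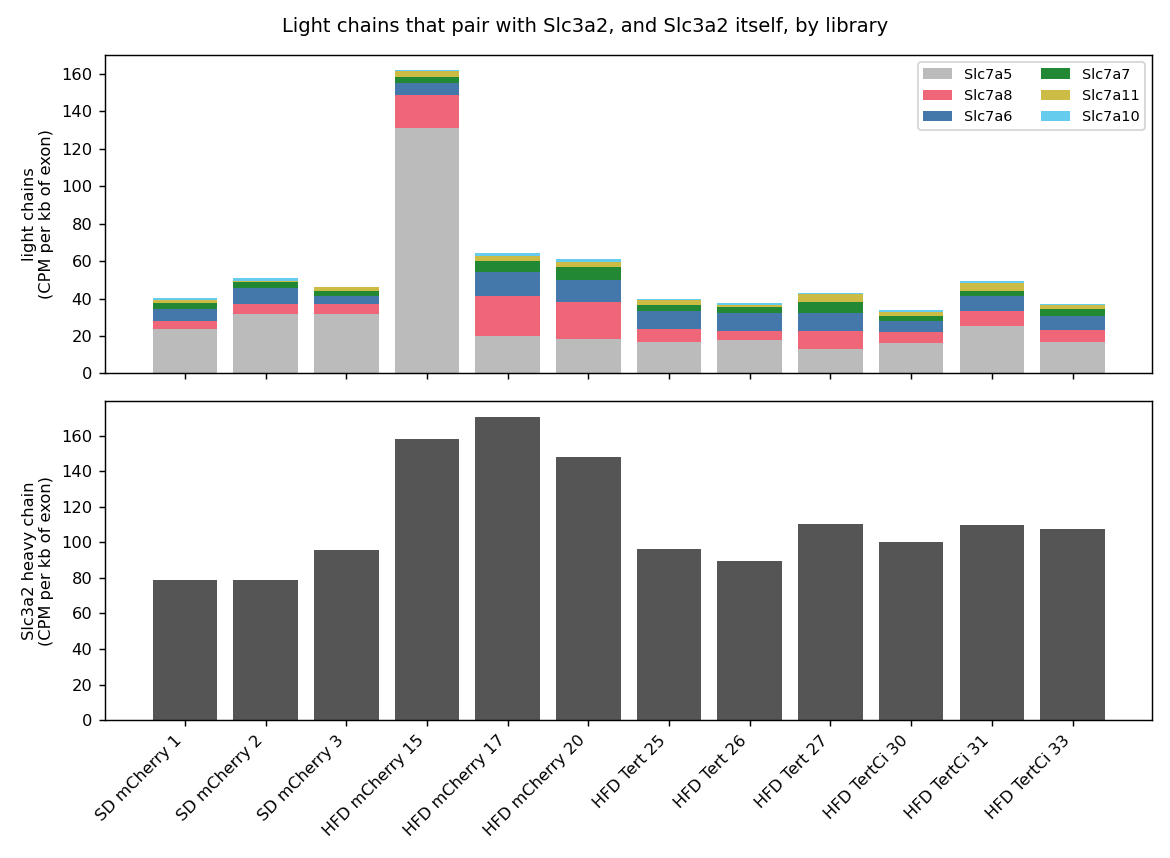
Stacked levels of 6 light chains (upper y axis) and the level of the Slc3a2 heavy chain (lower y axis), both in CPM per kb of exon, in each of the 12 libraries. The Slc7a8 segment is thickest in the 3 HFD mCherry libraries, and replicate 15 differs from its mates by the Slc7a5 segment of 131 CPM per kb.

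Among 15302 genes averaging 1 CPM or more, the 5 most like Slc7a8 by Pearson correlation of log2 CPM over the 12 libraries included Slc3a2, with r = 0.961 and Spearman's rho = 0.930. The others were Chpf2, an enzyme of chondroitin synthesis (r = 0.973), Hk2, a hexokinase that starts glucose breakdown (r = 0.958), Capg, an actin-capping protein of phagocytes (r = 0.954), and Arhgap9, a GTPase regulator of blood cells (r = 0.951). Much of this likeness is the gap between HFD mCherry and the rest, which chose Slc7a8. Over the 9 libraries outside HFD mCherry the values were 0.802 for Slc3a2, 0.858 for Chpf2, 0.737 for Hk2, 0.889 for Capg and 0.782 for Arhgap9. Chpf2 had 95.3, 96.7 and 96.7 CPM in HFD mCherry and 44.5 to 70.7 CPM in the 9 other libraries. HFD Tert 27 was the highest of those 9 for Chpf2, Hk2, Capg, Arhgap9, Slc3a2 and Slc7a8. These correlations are descriptions, and the points share library and group.

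Among the members, Slc7a1 and Slc7a2 were the most alike over the 9 libraries outside HFD mCherry (r = 0.969), followed by Slc1a5 and Slc38a2 (r = 0.863). Slc7a8 had r = 0.760 with Slc7a1 and 0.825 with Slc7a2 over those 9. Slc7a5 had negative coefficients with 8 of the 9 other members there, from -0.67 with Slc7a1 to -0.08 with Slc1a5, and a positive one with Slc43a2 (0.186).

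Markers of cell types moved with the same groups. The macrophage list was higher in HFD mCherry than in SD mCherry for 15 of 15 genes. Of these, 14 were higher without overlap, against 13.9% of all genes tested, and 0 were called, against 0.0479%. The list summed to 1289 to 1546 CPM in SD mCherry and 2923 to 7541 CPM in HFD mCherry. It was 1090 to 3320 CPM in HFD Tert and 1446 to 2428 CPM in HFD TertCi, and none of its genes was at 0 in any library. The lipid-associated macrophage list was higher for 11 of 12 genes, at 1714 to 2585 CPM in SD mCherry and 4655 to 14790 CPM in HFD mCherry, and it summed to 2508 to 5718 CPM in HFD Tert and 2277 to 4465 CPM in HFD TertCi. The progenitor list was higher for 12 of 13 genes, at 3354 to 5776 CPM in SD mCherry and 9366 to 27895 CPM in HFD mCherry, and it summed to 5579 to 13361 CPM in HFD Tert and 5009 to 9362 CPM in HFD TertCi. HFD Tert 27 summed above HFD mCherry 15 in all 3 lists, at 3320 against 2923, 5718 against 4655 and 13361 against 9366 CPM. Slc7a8 was 46.5 CPM in HFD Tert 27 and 88.5 CPM in HFD mCherry 15. These were the highest HFD Tert and the lowest HFD mCherry library of each list, and they also differed in Crisp1 (0.529 and 2396 CPM). What sets Slc7a8 apart in this pair was not tested. In all 3 lists the summed levels of the HFD mCherry and SD mCherry libraries did not overlap. Over all 12 libraries, including the gap that chose it, Slc7a8 had r = 0.920 with the mean log2 level of the macrophage list. It had 0.917 with the lipid-associated list, 0.822 with the progenitor list and 0.203 with the endothelial list. Over the 9 libraries outside HFD mCherry the values were 0.789, 0.844, 0.639 and 0.753, in the same order. Over those 9, Slc7a1 and Slc7a2 had their highest values with the endothelial list, 0.931 and 0.953. That list was higher in both knock-in groups than in SD mCherry, at 2496 to 5965 CPM and 2726 to 6282 CPM against 1061 to 1468 CPM, as were Slc7a1 and Slc7a2. In HFD mCherry the endothelial list summed to 1902 to 3493 CPM, with a mean log2 level of 7.37 against 7.97 in both knock-in groups. The means of Slc7a1 and Slc7a2 were highest in HFD mCherry. For Slc7a2 that mean rests on replicates 17 and 20, as replicate 15 had 25.8 CPM, the lowest of the high-fat diet libraries. The part of these cell types in the transporter levels was not tested.

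**Figure D4:**
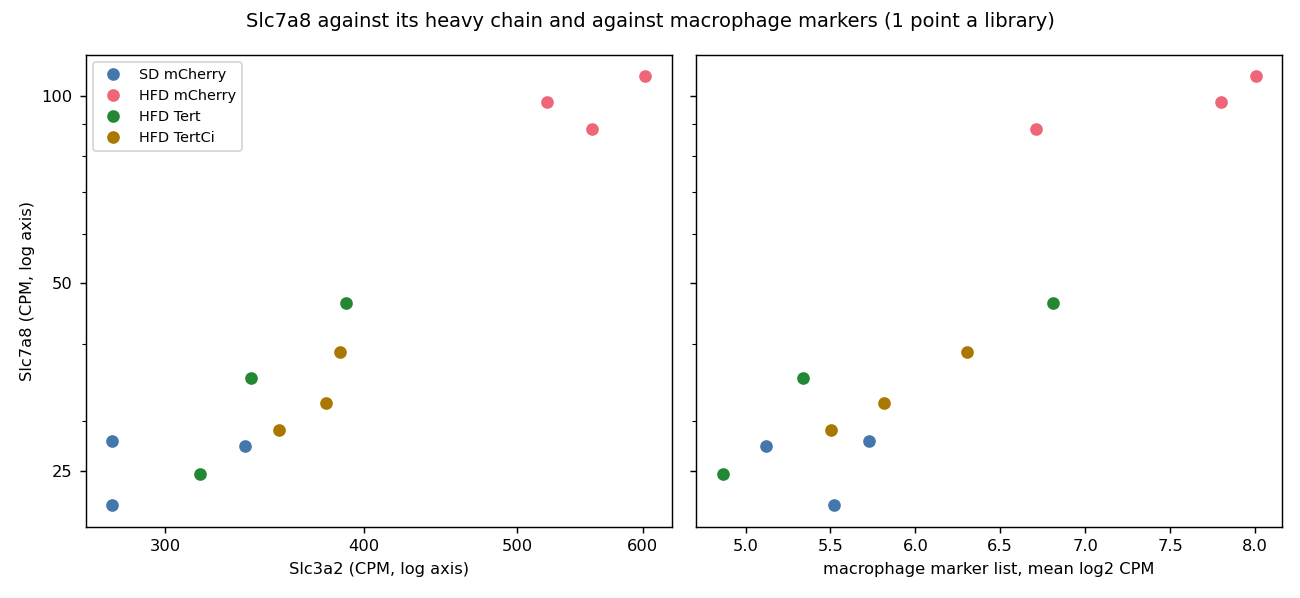
Slc7a8 (y axis, CPM on a log axis) against Slc3a2 (left, CPM on a log axis) and against the mean log2 CPM of 15 macrophage markers (right), 1 point per library, coloured by group. The 3 HFD mCherry points are above the 9 others on the y axis and to their right on the Slc3a2 axis. On the macrophage axis HFD mCherry 15 is at 6.71 and HFD Tert 27 at 6.81.

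The diet comparison of the remaining lists was as follows. The mesothelial list was lower in HFD mCherry than in SD mCherry for 8 of 9 genes, at 392 to 1357 CPM against 1432 to 4502 CPM, and the endothelial list higher for 10 of 11. Mast cell genes were higher for 5 of 5 and neutrophil genes for 4 of the 4 counted, though neutrophil genes summed to 20.6 CPM at most. T cell genes were higher for 4 of 6, B cell genes for 4 of 5, adipocyte genes for 4 of 9 and epididymal genes for 3 of the 8 tested. Of these, 1 adipocyte gene was called, against 0.0479% of all genes tested. It was Cfd, the secreted protease adipsin, named here after its value was seen, at 15.03 ± 4.61 CPM in SD mCherry and 0.409 ± 0.0190 CPM in HFD mCherry (log2 difference -5.18 ± 0.537, edgeR adjusted p = 0.0219). The adipocyte list as a whole summed to 299 to 504 CPM in SD mCherry and 924 to 1749 CPM in HFD mCherry. Its mean log2 level was 2.78 ± 0.603 in SD mCherry and 2.40 ± 0.368 in HFD mCherry. The epididymal list summed to 7.32 to 59024 CPM within SD mCherry and 9.26 to 21116 CPM within HFD mCherry. With its mean log2 level as a covariate, 1731 of all 16713 genes tested were called in the diet comparison, and of the 9 members other than Slc7a8 these were Slc3a2 (0.91, edgeR adjusted p = 0.0107), Slc7a1 (1.25, edgeR adjusted p = 0.00807) and Slc7a2 (1.76, edgeR adjusted p = 0.0153). The adjusted p over the alternatives ran from 3.99e-05 to 0.261 for Slc3a2, from 0.000276 to 0.261 for Slc7a1 and from 0.00195 to 0.269 for Slc7a2.

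A list of 41 other amino acid transporters, 35 of which could be tested, was split in direction in the diet comparison and mostly lower in the knock-in groups. For the diet, 19 were higher and 16 lower, 0 were called, and the median was 0.21 against -0.08 over all genes. Among those averaging at least 1 CPM, the smallest p belonged to Slc38a7, a lysosomal exporter of glutamine and asparagine (0.98 ± 0.245, edgeR adjusted p = 0.0756). Next were Slc38a3, a glutamine transporter (-2.92 ± 0.884, edgeR adjusted p = 0.102), and Slc38a10 (0.81 ± 0.259, edgeR adjusted p = 0.112). Slc38a3 had 34.2 ± 31.1 CPM in SD mCherry and 4.52 ± 2.14 CPM in HFD mCherry, with overlap. Slc38a7 had 10.8 ± 1.33 CPM on the standard diet, against 21.3 ± 5.13 in HFD mCherry. The HFD Tert and HFD TertCi levels were 12.1 ± 1.88 and 11.1 ± 0.420 CPM. Slc38a10 had 91.9 ± 13.5, 162 ± 30.5, 78.1 ± 8.46 and 79.4 ± 27.2 CPM in the same order. The HFD mCherry libraries of Slc38a7 and Slc38a10 lay above those of each other group. Against HFD mCherry, 26 of the 35 were lower in HFD Tert, 11 of them without overlap, as were 1863 of all 16713 genes tested. In HFD TertCi 26 were lower, 8 of them without overlap, as were 2012 of all genes tested. The medians were -0.87 and -0.91, below the -0.67 and -0.77 of the 10 members, and 0 were called in either.

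The genes of amino acid sensing were split in direction in the diet comparison. Of 25 genes of the Atf4 response, a list that includes asparagine synthetase and other amino acid makers, 13 were higher and 12 lower in HFD mCherry, with a median of 0.25 and 0 called. Against HFD mCherry, 20 of the 25 were higher in HFD TertCi, with a median of 0.57 against -0.04 over all genes tested. In HFD Tert 15 were higher and 10 lower, with a median of 0.09. Between the knock-in groups, 22 were lower in HFD Tert than in HFD TertCi, with a median of -0.38. None was called in these 3 comparisons. Asns, asparagine synthetase itself, had 16.1 ± 7.53 CPM in SD mCherry and 29.6 ± 7.47 in HFD mCherry, while its Tert and TertCi levels were 36.0 ± 1.25 and 39.3 ± 3.90 CPM, both without overlap above HFD mCherry. Aldh1l2, a mitochondrial folate enzyme, differed by 1.31 ± 0.485 and Atf3, a stress-induced partner of Atf4, by -1.18 ± 0.393 (edgeR adjusted p = 0.1502 and 0.123). Of 29 genes of mTORC1 and its amino acid sensors, 13 were higher and 16 lower, with a median of -0.06 and 0 called. Fnip2, which acts with folliculin on the Rag GTPases, had 44.3 ± 17.3 CPM in SD mCherry and 168 ± 78.4 in HFD mCherry (1.92 ± 0.524, edgeR adjusted p = 0.0860). Depdc5, a subunit of the complex that restrains mTORC1 when amino acids are scarce, and Wdr59, of the complex that opposes it, differed by 1.89 ± 0.509 and 0.84 ± 0.261 (edgeR adjusted p = 0.0847 and 0.107).

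**Figure D5:**
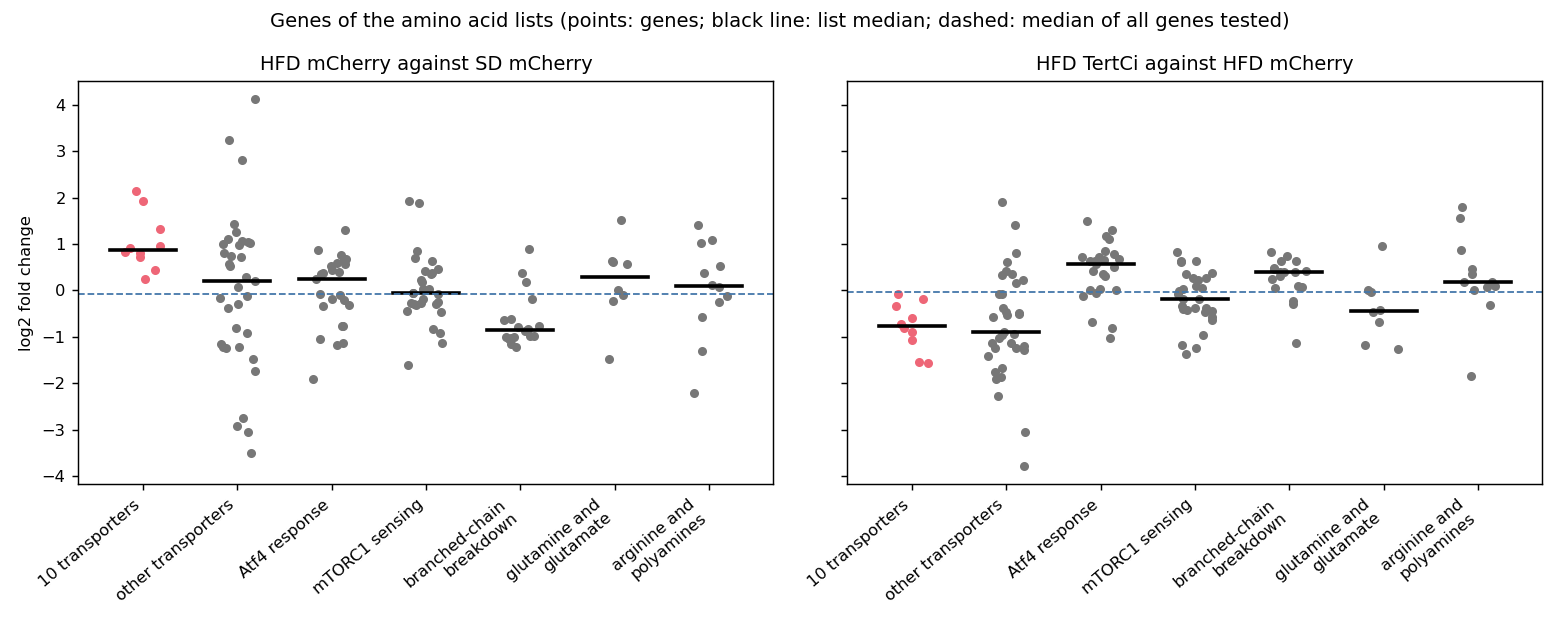
Log2 fold changes (y axis) of the genes of 7 lists, 1 point per gene, in HFD mCherry against SD mCherry (left) and HFD TertCi against HFD mCherry (right), with a black line at each list's median and a dashed line at the median of all genes tested. The 10 transporters (red) sit above 0 on the left and below 0 on the right, and the list of branched-chain breakdown has a median of -0.85 on the left.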

How the data were processed

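For each of the 12 libraries the authors deposited unnormalized counts of reads by gene symbol. The RNA, purified on columns, was selected by poly-T and primed with random hexamers, per the labels' protocols. Subread, SAMtools and featureCounts 1.6.4 with build mm10 are named, without roles, per the submitters' processing notes, and neither the gene annotation nor strandedness is given in the sources used here. Of the features, 0 lacked a name. The sample labels gave the groups, and the design text writes the high-fat control as p21+/-, where the labels were followed.

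Counts were fitted in R 4.3.3 with edgeR 4.0.16 (filterByExpr, TMM factors of 0.854 to 1.15, robust quasi-likelihood, 4 groups of all 12 libraries, 2-sided tests). P-values were adjusted by Benjamini-Hochberg over all 16713 genes tested in a comparison, and a gene was called under 0.05. The script was tested on simulated data. Standard errors (SE) are the log2 fold change over the root of its F, and the common biological coefficient of variation was 0.536. DESeq2 1.42.0 and limma 3.58.1 were alternatives. No 2 replicates were alike within counting noise (chi-square over its degrees of freedom was at least 18.0). Levels per kb use the merged exons of GENCODE M21.

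The members and lists (6 of amino acid genes, 11 of cell types) were chosen with earlier results of these data known. All members are named, with the 3 genes of each amino acid list with the smallest diet p and a mean of at least 1 CPM, any gene of those lists called (0 were), and the 5 genes most like Slc7a8. Counts of libraries that do not overlap against SD mCherry, and the fits by Crisp1 level, were added after the data were seen.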

Additional observations from a re-analysis of the deposited data

How the results depend on the processing

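No paired analysis was possible because no replicate number occurs in more than 1 group. Of the alternatives, 12 leave out 1 library each. In the diet comparison, 8 genes and 1 member were called, and counts of members include Slc7a8, which was chosen on this comparison. RLE size factors gave 2 genes and 0 members, DESeq2 1977 and 4, limma-voom 0 and 0, the compared groups alone 0 and 0, and the epididymis covariate 1731 and 4. With 1 library left out the counts ran from 0 to 2082 genes and from 0 to 6 members. For HFD Tert against HFD mCherry, where 0 genes were called, DESeq2 gave 810 genes and 2 members, the covariate 565 and 2, and leaving out 1 library 0 to 51 genes. For HFD TertCi, where 2 genes were called, library size alone gave 1, DESeq2 599 genes and 3 members, the compared groups alone 0, the covariate 235 genes and 1 member, and leaving out 1 library 0 to 198 genes and 0 to 2 members. DESeq2 called 10 genes and 0 members between HFD Tert and HFD TertCi. DESeq2 gave Slc7a5 no adjusted p. The fit to the 8 libraries with Crisp1 at 1 CPM or more, chosen after seeing the data, called 0 genes and 0 members in every comparison. The filters on low counts kept every count of calls within 1.5 times. The cause of these differences was not tested.

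Scaling by library size alone moved the median of all genes by -0.20 in the diet comparison and by 0.10 for HFD TertCi, and 9 members stayed above 0 for the diet. Slc38a2 then turned to -0.00798 for the diet and 0.0436 for HFD Tert. The difference between HFD Tert and HFD TertCi changed sign for Slc43a2 with RLE (-0.00926), DESeq2 (-0.00879), the compared groups alone (-0.000527) and the covariate (-0.0649). It also changed sign in the 8 libraries for Slc7a8 (-0.0242), Slc7a5 (0.0710), Slc7a7 (-0.0554) and Slc1a5 (0.0494). Leaving out 1 library, the diet difference ran from -0.59 to 1.38 for Slc7a5 and from -0.00212 to 0.45 for Slc38a2. The HFD Tert difference of Slc38a2 ran from -0.27 to 0.0765, and the HFD TertCi differences of Slc7a5 and Slc1a5 from -1.95 to 0.0156 and from -0.62 to 0.127. In the comparison of both knock-in groups the ranges were -0.15 to 0.29 for Slc7a8, -0.26 to 0.10 for Slc7a1, -0.54 to 0.21 for Slc7a2, -0.00752 to 0.53 for Slc7a7, -0.49 to 0.38 for Slc1a5, -0.0373 to 0.27 for Slc38a2 and -0.16 to 0.12 for Slc43a2. All other signs of the members held under the alternatives with a test. With 3 libraries a group, the intervals given limit what could be seen.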

Other observations

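Genes that break down the amino acids carried by these transporters were also described. Of 18 genes of branched-chain amino acid breakdown, 15 were lower and 3 higher in HFD mCherry than in SD mCherry, with a median log2 difference of -0.85 against -0.08 over all genes tested. None was called by edgeR, 6 were lower at an unadjusted p under 0.05 (1671 of all 16713 genes tested), and 5 were lower without overlap (1933 of all genes tested). The list summed to 901 to 1017 CPM in SD mCherry, and to 830 CPM in HFD mCherry 15 against 496 and 432 CPM in its mates 17 and 20. HFD Tert 27 (486 CPM) and HFD TertCi 31 (520 CPM), both with Crisp1 under 1 CPM, were also below their mates, at 706 to 774 and 685 to 841 CPM, and the part of these library differences was not tested. Dbt, a subunit of the branched-chain ketoacid dehydrogenase, had 26.7 ± 3.39 CPM in SD mCherry and 14.7 ± 0.676 in HFD mCherry (-0.87 ± 0.228, edgeR adjusted p = 0.0796). Pccb, a subunit of propionyl-CoA carboxylase, had 79.4 ± 17.1 and 33.9 ± 11.7 CPM (-1.23 ± 0.333, edgeR adjusted p = 0.0851), and Ivd, isovaleryl-CoA dehydrogenase, differed by -1.04 ± 0.386 (edgeR adjusted p = 0.1502). In both knock-in groups 15 of the 18 genes were higher than in HFD mCherry, with medians of 0.23 in HFD Tert and 0.39 in HFD TertCi, and 0 were called.

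Among 8 genes of glutamine and glutamate metabolism, 5 differed upward and 3 downward with diet, and 0 were called. Gpt2, the mitochondrial alanine aminotransferase, had 75.0 ± 11.8 CPM on the standard diet and 114 ± 40.8 in HFD mCherry, and its Tert and TertCi levels were 45.7 ± 2.63 and 47.2 ± 2.42 CPM. The differences of the knock-in groups from HFD mCherry were -1.32 ± 0.246 and -1.27 ± 0.246 (edgeR adjusted p = 0.157 and 0.154), without overlap. Gpt, the cytosolic form, differed by -1.47 ± 0.528 on the diet (edgeR adjusted p = 0.141), and Gls2, a glutaminase, by 1.52 ± 0.361 (edgeR adjusted p = 0.0727), from 2.77 ± 0.896 to 7.94 ± 2.14 CPM. Of 12 tested genes of arginine and polyamine metabolism, 7 were higher and 5 lower on the diet. The arginine users Nos2 and Arg2 differed by 1.41 ± 0.400 and -2.21 ± 0.812 (edgeR adjusted p = 0.0895 and 0.147). Odc1, which uses ornithine, differed by 1.09 ± 0.415 (edgeR adjusted p = 0.160). Arg2 had 59.1 ± 22.8 CPM in SD mCherry and 12.7 ± 9.20 in HFD mCherry.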
